A study of Mus musculus with 4 samples.

Results

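A set of 9 genes of apoptotic cell clearance was followed in 4 RNA-seq libraries of mouse keratoacanthoma, a skin tumour that can regress on its own. They were taken by symbol from the deposited expression table of 22222 genes, and all 9 had a row: Axl, Mertk, Tyro3, Gas6, Pros1, Mfge8, Stab1, Tgm2 and Havcr2. All mice had received 20 weeks of DMBA, a polycyclic hydrocarbon carcinogen. Tumours came from 2 mice still on DMBA (week 0) and from 2 other mice 1 week after it ended, and RNA was taken from cells that FACS had gated on Tomato fluorescence and on P-cadherin, an adhesion protein of basal keratinocytes. The labels name neither strain, genotype and age nor the promoter behind the Tomato label, and they call the cells only Epi. Each library is from 1 mouse by its identifier, so the spread between replicates includes the difference between mice.

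Dying cells expose phosphatidylserine on their outer membrane, and phagocytes recognise it directly or through soluble bridging proteins. Gas6 and protein S (Pros1) bridge it to the receptor tyrosine kinases Tyro3, Axl and Mertk, together called TAM, while Mfge8 bridges it to integrins. Stabilin-1 (Stab1) and TIM-3 (Havcr2) bind phosphatidylserine themselves, and the transglutaminase Tgm2 takes part in uptake by macrophages. In skin, uptake of dead cells is carried out by macrophages and also by neighbouring epithelial cells.

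Levels are given as scaled CPM, read counts divided by a library size that the submitters had scaled, in the order on-DMBA replicates 1 and 2, then 1-week replicates 1 and 2. The libraries held 5551937 to 9678682 reads. The first on-DMBA library stood apart from the other 3 in its cell markers. The 10 keratinocyte markers summed to 44311 and 495 in the on-DMBA pair, then 3707 and 3172 in the 1-week pair, and 10 of 10 were highest in on-DMBA replicate 1. The 10 macrophage markers summed to 8.91 and 26572 in the on-DMBA pair, then 10967 and 15532 in the 1-week pair. In on-DMBA replicate 1, 4 of these 10 macrophage genes had 3 reads or fewer, although none was at 0. The 8 fibroblast markers summed to 164 and 40882 in the on-DMBA pair, then 46089 and 48709.9 in the 1-week pair, and 8 endothelial markers to 6.77 and 206 in the on-DMBA pair, then 722 and 1628 in the 1-week pair. Across all 8 marker lists only 1 gene was at 0 in any library, the dendritic cell gene Cd209a in on-DMBA replicate 1. Cdh3, which encodes the P-cadherin of the gate, had levels of 325 and 3.23 on DMBA against 42.8 and 30.4 after 1 week. The most abundant marker of macrophages, Lyz2, had 1.19 and 8839 on DMBA against 3112 and 6663, and that of fibroblasts, Col3a1, 68.5 and 20658 against 20761 and 27662. Keratinocyte markers were thus detected in all 4 libraries, but in the other 3 the macrophage and fibroblast sums exceeded the keratinocyte sum, which goes against the label Epi there. In such bulk RNA, fewer cells of a type and less RNA per cell cannot be told apart. The differences of the 9 genes are therefore given with all 4 libraries and without each on-DMBA library, and the part of other cell types in them was not tested.

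With all 4 libraries, none of the 9 clearance genes passed the test between 1 week and on DMBA (limma, adjusted p = 1.000 for each). The background was the same, with 0% of 15419 genes called higher and 0% called lower. By unadjusted p under 0.05, limma gave 352 higher genes (2.28%) and 30 lower genes (0.195%), and edgeR on recovered reads, which also called 0 genes, gave 229 (1.49%) and 42 (0.272%). DESeq2 on recovered reads called 16 genes higher (0.104%) and 3 lower (0.0195%), none of them a clearance gene. With the replicate number as a block, Havcr2 and Tgm2 were called higher, against 1.85% of all genes higher and 0.0195% lower, but equal numbers mark different mice. The groups did not overlap at 3 clearance genes that were higher at 1 week (Mfge8, Havcr2 and Tgm2), against 14.0% of all genes tested, and at 1 that was lower (Tyro3), against 9.14%. Endothelial markers (8 of 8) and pericyte and smooth muscle markers (6 of 6) were likewise higher at 1 week without overlap. So were 5 of 8 T and NK cell, 3 of 8 dendritic cell, 3 of 8 fibroblast and 1 of 6 neutrophil markers. Among macrophage and keratinocyte markers 0 of 10 each were. The part of any of these cell types in the values of Mfge8, Havcr2 and Tgm2 was not tested. With 2 mice in each group the smallest two-sided p of an exact permutation test is 0.333. The median log2 difference, 1 week minus on DMBA, was 0.96 over the 9 genes and -0.02 over all genes tested. Of the 9 genes, 8 were lowest in on-DMBA replicate 1, as were 37.5% of all genes tested. The median gap between the on-DMBA libraries was 2.89 on the log2 scale for the 9 genes and 1.02 for all genes tested, and between the 1-week libraries it was 0.41 and 0.51. In these genes the on-DMBA libraries thus lay farther apart than the 1-week libraries.

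**Figure D1:**
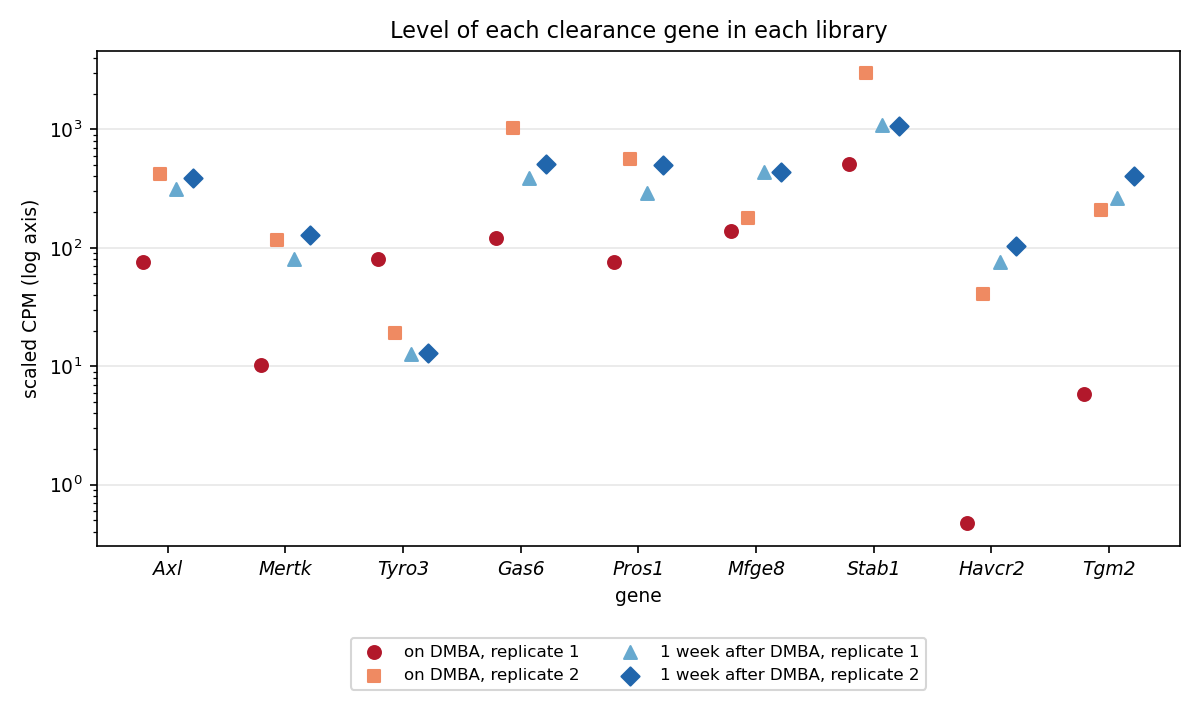
Level of each clearance gene (x axis) in scaled CPM on a log axis (y axis), with 1 point per library. On-DMBA replicate 1 (dark red circles) is the lowest library for every gene except Tyro3, where it is the highest at 80.5, and the 1-week libraries sit above both on-DMBA libraries for Mfge8, Havcr2 and Tgm2.

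Among the TAM receptors, Axl was at 75.4 and 423 scaled CPM in the on-DMBA pair, then 313 and 389 in the 1-week pair. The 1-week libraries lay between the on-DMBA libraries, which differed 5.61-fold from each other, and the log2 difference was 0.96 (SE 0.93). Mertk, the receptor most tied to clearance by macrophages, was at 10.2 and 116 in the on-DMBA pair, then 79.9 and 128 in the 1-week pair. Its groups overlapped too, and its log2 difference was 1.52 (SE 1.18), against 0.72 in edgeR and 0.66 in DESeq2 on recovered reads. The 10.2 scaled CPM of Mertk in on-DMBA replicate 1 rest on 86 reads, with a 95% Poisson interval of 8.17 to 12.6 scaled CPM that covers counting error only. Tyro3 ran the other way, at 80.5 and 19.0 in the on-DMBA pair, then 12.7 and 13 in the 1-week pair. It was highest in the library richest in keratinocyte markers, but the other libraries did not follow that order. On-DMBA replicate 2 had a keratinocyte sum of 495, below the 3707 and 3172 at 1 week, and yet more Tyro3. The part of keratinocytes in the values of Tyro3 was not tested. Its groups did not overlap, and its log2 difference was -1.58 (SE 0.82), which did not pass (limma, adjusted p = 1.000).

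The receptor mixture therefore differed between the on-DMBA libraries. Per kilobase of exon, Axl, Mertk and Tyro3 were at 15, 2.36 and 13 scaled CPM in on-DMBA replicate 1. In on-DMBA replicate 2 the same receptors were at 84.1, 26.7 and 3.07 per kilobase. Tyro3 made up 42.8% of the summed TAM receptor level in on-DMBA replicate 1, and 2.69%, 2.47% and 1.92% in on-DMBA replicate 2 and the 1-week libraries. Mertk made up 7.77% in on-DMBA replicate 1 and 23.5%, 22.3% and 27.1% in the other 3. Axl held the largest share in each of the 4 libraries, from 49.4% to 75.2%.

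**Figure D2:**
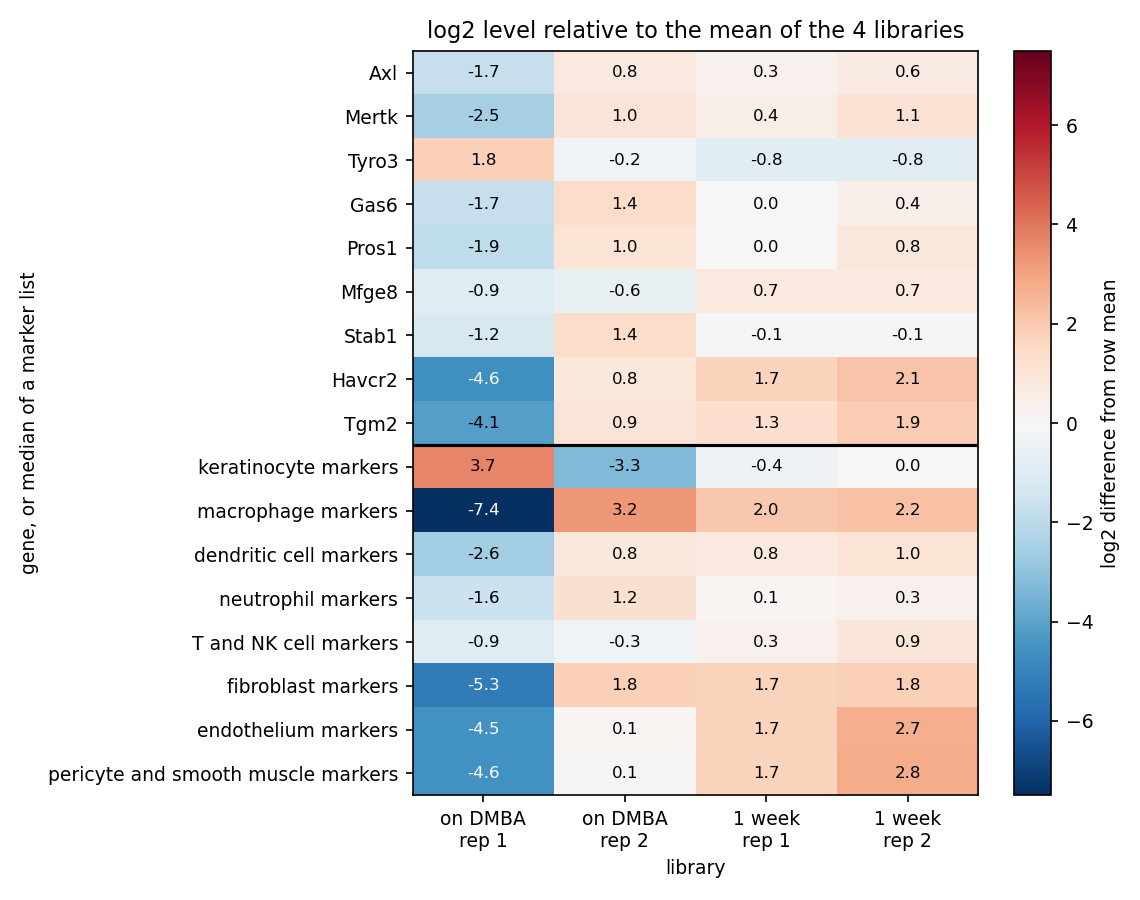
Log2 level of each clearance gene (top rows) and median log2 level of each marker list (bottom rows) in each library (columns), relative to the mean of the row, in colour and figures. On-DMBA replicate 1 is high for keratinocyte markers and Tyro3 and low for the macrophage, fibroblast, endothelium and pericyte markers and for the other 8 clearance genes.

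Of the TAM ligands, Gas6, which binds all TAM receptors, was at 121 and 1026 scaled CPM in the on-DMBA pair, then 385 and 514 in the 1-week pair. Both 1-week values fell between those of the on-DMBA mice, which differed 8.51-fold, and the log2 difference was 0.34 (SE 1.12). Its sign turned to -0.35 in edgeR and -0.40 in DESeq2 on recovered reads. Pros1, the anticoagulant protein S and a ligand of Tyro3 and Mertk, was at 75.3 and 563 in the on-DMBA pair, then 289 and 502 in the 1-week pair. It overlapped in the same manner, with a log2 difference of 0.88 (SE 1.07). Per kilobase of exon Gas6 exceeded Pros1 in every library, at 47.3 against 18.4 scaled CPM in on-DMBA replicate 1, 403 against 138 in on-DMBA replicate 2, and 151 against 70.6 and 202 against 123 at 1 week.

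Mfge8, the bridging protein that joins phosphatidylserine to alpha v integrins, had the difference that varied least of the 9 when 1 library was left out (1.30 to 1.65). It was at 138 and 177 scaled CPM in the on-DMBA pair, then 437 and 434 in the 1-week pair. Both 1-week libraries were above both on-DMBA libraries, and the mean at 1 week was 2.76 times that on DMBA. The log2 difference was 1.47 (SE 0.54), with an unadjusted p of 0.0394 and an adjusted p of 1.000 in limma. With on-DMBA replicate 1 left out it was 1.30 (SE 0.62), and with replicate 2 left out 1.65 (SE 0.65). Per kilobase, Mfge8 was 31.0% and 6.52% of the sum of Gas6, Pros1 and Mfge8 in the on-DMBA libraries and 29.6% and 22.2% at 1 week. Of its integrin partners, Itgav, named here after its values were seen, was at 382 and 331 in the on-DMBA pair, then 337 and 447 in the 1-week pair, Itgb5 at 152 and 449 in the on-DMBA pair, then 441 and 526 in the 1-week pair, and Itgb3 at 0.950 and 38.4 in the on-DMBA pair, then 122 and 115 in the 1-week pair.

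**Figure D3:**
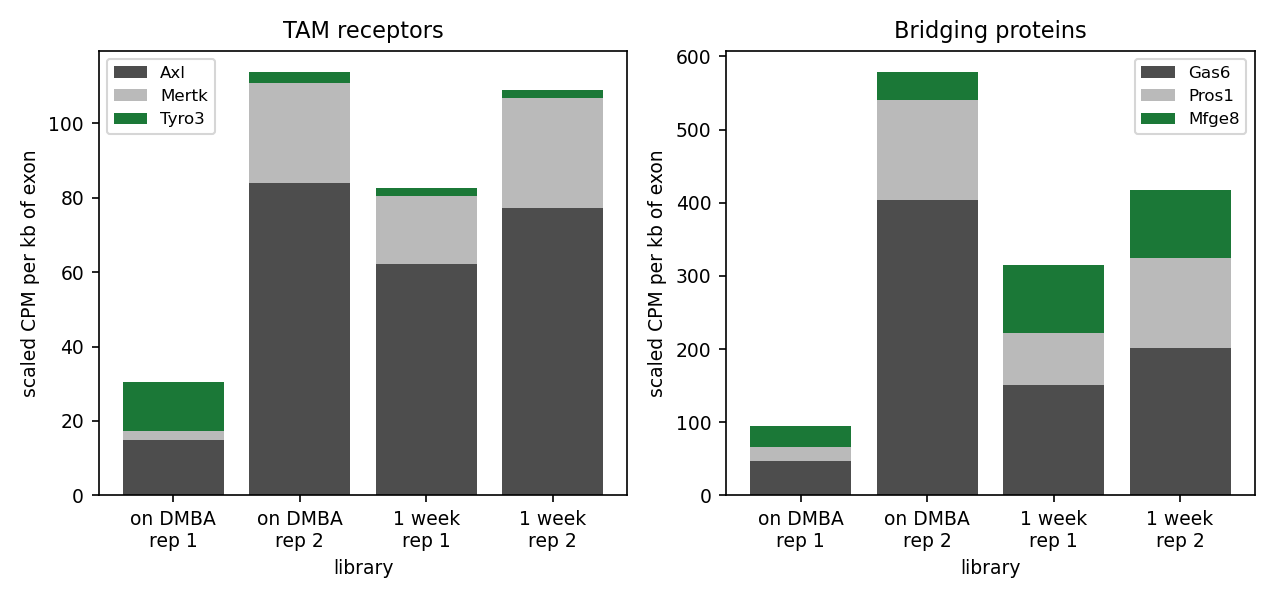
Scaled CPM per kilobase of exon (y axes) of the TAM receptors (left) and of the bridging proteins (right), stacked by gene for each library. Tyro3 is a large share of the receptor sum in on-DMBA replicate 1 alone (42.8%), and the bridging sum is highest in on-DMBA replicate 2 (578), where Mfge8 has its smallest share.

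The phosphatidylserine receptors Stab1 and Havcr2 ran differently across the libraries. Stab1, a scavenger receptor of macrophages and sinusoidal endothelium, was at 509 and 2973 scaled CPM in the on-DMBA pair, then 1078 and 1069 in the 1-week pair. The on-DMBA mice held its lowest and its highest value, and the log2 difference was -0.20 (SE 1.11). Stab1 had 4285 reads in on-DMBA replicate 1, where 4 of 10 macrophage and 3 of 8 endothelial markers had 3 reads or fewer. Its level there lay 8.80 log2 units above the median macrophage marker, against 0.67, 0.40 and 0.23 in the other 3 libraries. That median was only 0.19 in on-DMBA replicate 1, which raises the offset. Which cells the Stab1 reads came from was not tested. Stab1 shares 112 of its 10288 exon bases with Nt5dc2 on the opposite strand in GENCODE M21, and Nt5dc2 was at 131 and 15.6 in the on-DMBA pair, then 34.2 and 30.5 in the 1-week pair. No source used here gives the strand setting of the counting, and whether reads were shared was not tested. Havcr2, an inhibitory receptor of T cells that myeloid cells carry as well, was at 0.475 and 40.4 in the on-DMBA pair, then 75.3 and 103 in the 1-week pair. It had 4 reads in on-DMBA replicate 1, with a 95% Poisson interval of 0.129 to 1.22 scaled CPM. Both 1-week libraries were above both on-DMBA libraries, and the log2 difference was 3.81 (SE 1.75), with an adjusted p of 1.000 in limma. On recovered reads it was 2.12 in edgeR and 2.07 in DESeq2. In the T and NK cell list, 5 of 8 genes were likewise higher at 1 week without overlap. Of these 8 genes, 7 and 5 had 3 reads or fewer in the on-DMBA pair, then 3 and 1 in the 1-week pair. Cd4, which myeloid cells also express, made up 27.3 of the list sum of 31.6 in on-DMBA replicate 2. In the dendritic cell list 3 of 8 genes were higher without overlap, where the share of all genes tested was 14.0%. Its most abundant gene, Itgax, was at 0.831 and 10.4 in the on-DMBA pair, then 181 and 426 in the 1-week pair. The 1-week list sums, at 278 and 569.8, were thus largely Itgax. Not all of the list ran this way. Clec10a was at 0.119 and 232 in the on-DMBA pair, then 59.1 and 97.1 in the 1-week pair. Zbtb46 was at 0.119 and 20.6 in the on-DMBA pair, then 7.19 and 14.4 in the 1-week pair. The part of these cells in the values of Havcr2 was not tested.

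Tgm2, which crosslinks proteins and also acts as a coreceptor in uptake, was at 5.82 and 209 scaled CPM in the on-DMBA pair, then 263 and 401 in the 1-week pair. The groups did not overlap, although on-DMBA replicate 2 was closer to the 1-week libraries than to its own replicate, which it exceeded 35.8-fold. The log2 difference was 3.16 (SE 1.64), with an adjusted p of 1.000 in limma. On recovered reads it was 1.62 in edgeR and 1.57 in DESeq2, and the level in on-DMBA replicate 1 rests on 49 reads (95% Poisson interval 4.30 to 7.69 scaled CPM). The exons of Tgm2 overlap those of Gm20412 by 633 of 4608 bases and those of Rprd1b by 370, both on the opposite strand. Gm20412 has no row in the table, and Rprd1b was lower than Tgm2 in 3 libraries, at 36.7 and 16.7 in the on-DMBA pair, then 14.2 and 19.7 in the 1-week pair. In on-DMBA replicate 1 the order was reversed. Of the other transglutaminases, Tgm1 of the cornified envelope was at 56.5 and 15.6 in the on-DMBA pair, then 21.1 and 23.2 in the 1-week pair, and Tgm4 at 13.3 and 8.97 in the on-DMBA pair, then 8.13 and 8.13 in the 1-week pair. F13a1, the coagulation factor XIII subunit that tissue macrophages make, was at 0.119 and 2612 in the on-DMBA pair, then 418 and 518 in the 1-week pair.

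The on-DMBA library that was kept set the outcome for most of the 9 genes. Without on-DMBA replicate 2, 7 were called higher (Axl, Mertk, Gas6, Pros1, Mfge8, Havcr2 and Tgm2) and 1 lower (Tyro3) by limma, against 14.3% and 10.0% of all genes. Their log2 differences ran from 1.65 (SE 0.65) for Mfge8 to 6.51 (SE 0.54) for Havcr2, and Tyro3 was at -2.60 (SE 0.53). Stab1 did not pass there (1.08, SE 0.77, adjusted p = 0.333). Without on-DMBA replicate 1, which leaves libraries that all hold macrophage and fibroblast markers, 0 of the 9 passed, against 2.35% of all genes higher and 0.999% lower. In that fit the log2 difference was 1.30 (SE 0.62) for Mfge8, 1.12 (SE 0.56) for Havcr2 and 0.64 (SE 0.61) for Tgm2. It was -1.47 (SE 0.70) for Stab1, -0.55 (SE 0.55) for Tyro3 and -1.21 (SE 0.65) for Gas6. Axl, Mertk, Gas6 and Pros1 changed sign there, to -0.28, -0.20, -1.21 and -0.56. On-DMBA replicate 2 still differed from the 1-week pair in marker sums, at 495 against 3707 and 3172 for keratinocytes. The macrophage sum was 26572 against 10967 and 15532, and the endothelial sum 206 against 722 and 1628. The fibroblast sums were closer, at 40882 against 46089 and 48709.9. The part of these differences in the values without replicate 1 was not tested. Leaving out on-DMBA replicate 1 gave the 9 genes a median of -0.28, and leaving out replicate 2 one of 2.20. In these fits the lone on-DMBA library is assumed to vary like the 1-week pair.

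**Figure D4:**
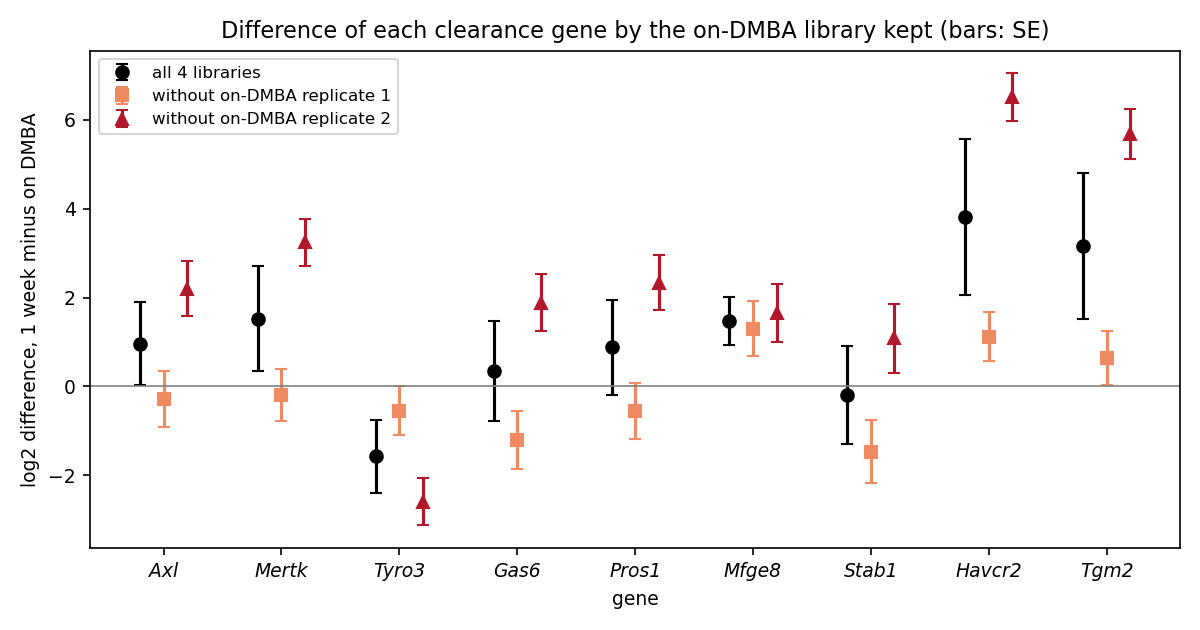
Log2 difference of each clearance gene between 1 week and on DMBA (y axis; bars are SE), with all 4 libraries (black) and without each on-DMBA library (orange squares without replicate 1, red triangles without replicate 2). Mfge8 is near the same value in all 3 fits (1.30 to 1.65), while Axl, Mertk, Gas6, Pros1 and Stab1 lie on both sides of 0.

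Levels were also set against the macrophage markers of the same library, as the log2 level of a gene minus the median log2 level of the 10 markers. Mfge8 was at 6.93 and -3.40 in the on-DMBA libraries and at -0.90 and -1.07 at 1 week. Havcr2 was at -0.22 and -5.52 on DMBA and at -3.43 and -3.14 at 1 week. Tgm2 was at 2.47 and -3.17 on DMBA and at -1.63 and -1.18 at 1 week. The offset of each of the 9 genes was highest in on-DMBA replicate 1, with Gas6 at 6.73 and Pros1 at 6.06, and only that of Havcr2 was below 0 there. The macrophage median was itself 0.19 in that library, where 4 of the 10 markers had 3 reads or fewer. It was 10.87 in on-DMBA replicate 2, then 9.67 and 9.83 in the 1-week pair. So low a median raises every offset in on-DMBA replicate 1, and their being highest there says little of the 9 genes. These offsets carry no test.

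The genes nearest in pattern were found among 10799 genes by the root mean square distance of log2 values over the 4 libraries, each centred on its own mean. The nearest to Mertk were Ptpn6 and Cd97, each at a distance of 0.05, and those to Axl were Pstpip1 (0.02) and Taok3 (0.05). For Tyro3 they were Adat2 (0.01) and Ptpn13 (0.11), for Gas6 Rnf130 (0.09) and Tec (0.10), and for Pros1 Herc6 (0.04) and Stk10 (0.10). For Stab1 they were Pdgfc (0.02) and Dhrs3 (0.11), and for Mfge8 Enox1 (0.07) and Cyfip2 (0.11). For Havcr2 they were Gngt2 (0.12) and Mcoln2 (0.15), and for Tgm2 Csf2rb2 (0.06) and Glipr2 (0.07). Within the 9 genes, Axl and Pros1 lay nearest to each other (0.23), followed by Gas6 and Pros1 (0.31) and by Havcr2 and Tgm2 (0.35), and Tyro3 lay farthest from Havcr2 (3.77).

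Promoter windows from RefSeq (GRCm38.p6, a later build than the mm9 named by the submitters) were found for 8 of the 9 genes, and 4 are shown because their genes had opposite patterns: Axl, Mertk and Havcr2 were lowest in on-DMBA replicate 1 and Tyro3 was highest there. Each runs 5′ to 3′ on the strand of the gene, from 250 bases before to 50 after the start. Capitals mark matches, on either strand, to any of 6 motifs: the AP-1 site TGANTCA, the PU.1 core GAGGAAG, the nuclear receptor half-site AGGTCA, the TCF/LEF core CTTTGA, the GC box GGGCGG and the TATA box TATAAA.
Axl, chr7:25788684-25788983, minus strand: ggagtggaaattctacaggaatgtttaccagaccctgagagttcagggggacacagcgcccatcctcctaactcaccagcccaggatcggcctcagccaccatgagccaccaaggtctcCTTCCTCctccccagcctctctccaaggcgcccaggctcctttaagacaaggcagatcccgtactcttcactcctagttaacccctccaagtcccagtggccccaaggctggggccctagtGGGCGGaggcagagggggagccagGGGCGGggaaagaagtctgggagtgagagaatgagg
Mertk, chr2:128698665-128698964, plus strand: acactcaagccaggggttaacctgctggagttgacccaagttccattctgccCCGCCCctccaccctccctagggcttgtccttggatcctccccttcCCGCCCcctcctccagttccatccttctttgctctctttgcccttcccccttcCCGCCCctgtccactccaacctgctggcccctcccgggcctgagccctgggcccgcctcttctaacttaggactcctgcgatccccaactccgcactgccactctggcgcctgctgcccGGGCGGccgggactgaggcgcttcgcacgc
Tyro3, chr2:119799264-119799563, plus strand: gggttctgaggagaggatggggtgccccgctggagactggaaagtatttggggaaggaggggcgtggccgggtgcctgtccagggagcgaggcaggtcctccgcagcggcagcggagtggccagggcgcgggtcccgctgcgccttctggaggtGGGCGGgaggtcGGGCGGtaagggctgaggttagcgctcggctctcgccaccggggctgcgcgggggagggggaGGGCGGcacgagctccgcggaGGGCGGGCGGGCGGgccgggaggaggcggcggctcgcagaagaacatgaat
Havcr2, chr11:46454681-46454980, plus strand: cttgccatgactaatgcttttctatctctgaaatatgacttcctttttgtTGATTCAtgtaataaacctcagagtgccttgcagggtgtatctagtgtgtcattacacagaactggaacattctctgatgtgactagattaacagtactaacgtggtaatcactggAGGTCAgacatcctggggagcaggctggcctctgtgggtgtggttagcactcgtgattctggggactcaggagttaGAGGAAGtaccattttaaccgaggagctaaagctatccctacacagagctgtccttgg
The GC box was present in the windows of Axl, Mertk and Tyro3 and in 35.7% of all 32851 promoters, and matches overlap one another near the start of Tyro3. The PU.1 core was in the windows of Axl and Havcr2 and in 13.6% of all promoters. Havcr2 also held the nuclear receptor half-site (16.3% of all promoters) and the AP-1 site (7.81%), and no GC box. The Tyro3 window had 73.3% G and C with 31 CG pairs, the Mertk window 66.0% with 14, the Axl window 60.3% with 6 and the Havcr2 window 45.3% with 3, where the median of all promoters was 52.7%. The windows not printed lie at chr8:13494486-13494785 (Gas6, minus strand), chr16:62854057-62854356 (Pros1, plus strand), chr7:79149011-79149310 (Mfge8, minus strand) and chr14:31168592-31168891 (Stab1, minus strand). Of these, the windows of Gas6, Pros1 and Mfge8 held the GC box too, and that of Stab1 did not. The TCF/LEF core matched once in them, in Pros1, and 16% of all promoters held it. These are matches of letters and say nothing of binding.

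The wider clearance pathway was described with 108 other genes grouped by role, of which 102 passed the filter on low levels. None passed in limma with all 4 libraries. Their median log2 difference was 0.72, and 63 of the 102 were lowest in on-DMBA replicate 1, against 37.5% of all genes tested. For 24 genes both 1-week libraries were above both on-DMBA libraries and for 3 both were below, against 14.0% and 9.14% of all genes tested. Leaving out on-DMBA replicate 1 moved the median to 0.02, and 4 genes were called higher (Pecam1, C3, Twist2 and Nr1h3) and 3 lower (Cx3cr1, Megf10 and F13a1), against 2.35% and 0.999% of all genes. Leaving out replicate 2 moved it to 1.49, with 47 called higher and 6 lower, against 14.3% and 10.0% of all genes. The 4 genes called higher were called higher there too, at 4.61 to 6.55 on the log2 scale. Each of these fits holds a lone on-DMBA library, so its calls do not measure the spread between mice on DMBA. The 3 genes called lower turned positive without replicate 2, with Cx3cr1 at 5.64, Megf10 at 2.84 and F13a1 at 9.56. Their direction thus rests on which on-DMBA library is kept. Cx3cr1 and Megf10 were chosen for mention after their values were seen.

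Among the find-me signals, by which dying cells draw phagocytes, the sphingosine kinase gene Sphk1 was at 14.8 and 19.2 in the on-DMBA pair, then 60.5 and 46.2 in the 1-week pair, a log2 difference of 1.62 (SE 0.52, limma adjusted p = 1.000). The receptor S1pr1 was at 0.831 and 37.9 in the on-DMBA pair, then 63.3 and 97.6 in the 1-week pair. The membrane chemokine Cx3cl1 was at 15.2 and 22.8 in the on-DMBA pair, then 7.81 and 5.42 in the 1-week pair, and its receptor Cx3cr1 at 1.66 and 587 in the on-DMBA pair, then 77.5 and 148 in the 1-week pair. The log2 difference of Cx3cr1 was 1.59 with all libraries, -2.45 when on-DMBA replicate 1 was left out and 5.64 when replicate 2 was. The most abundant genes of this role, Thbs1 and Anxa1, were at 996 and 759 in the on-DMBA pair, then 1079.9 and 1174 in the 1-week pair, and at 899 and 324 in the on-DMBA pair, then 366 and 557 in the 1-week pair. For exposure of phosphatidylserine, the median log2 difference of 9 genes was 0.05. The most abundant gene in that group, Calr, does not itself expose phosphatidylserine. It was at 984 and 799 in the on-DMBA pair, then 815 and 1033 in the 1-week pair. Tmem30a, the next most abundant, was at 142 and 197 in the on-DMBA pair, then 100 and 203 in the 1-week pair.

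Other bridging proteins had a median log2 difference of 3.04 over 9 genes with all libraries in limma, but of 0.83 in edgeR and 0.79 in DESeq2 on recovered reads. Their median was 0.04 when on-DMBA replicate 1 was left out and 4.91 when replicate 2 was. This list holds the C1q chains, which are also in the macrophage list. C1qa was at 0.475 and 4603 in the on-DMBA pair, then 2354 and 2742 in the 1-week pair. The complement gene C3 was at 8.31 and 105 in the on-DMBA pair, then 354 and 572 in the 1-week pair. Without on-DMBA replicate 1 its log2 difference was 2.09. Thbs2 was at 76.9 and 1033 in the on-DMBA pair, then 2622 and 2074 in the 1-week pair, and Edil3, the relative of Mfge8, at 0.237 and 20.8 in the on-DMBA pair, then 21.4 and 21.4 in the 1-week pair. Among 19 other receptors and integrins, 17 were lowest in on-DMBA replicate 1, against 37.5% of all genes tested. The scavenger receptor Scarb1 was at 27.8 and 31.9 in the on-DMBA pair, then 61.9 and 113 in the 1-week pair. Lrp1, the most abundant of these receptors, was at 583 and 2281 in the on-DMBA pair, then 2066 and 2024 in the 1-week pair. The relatives of Havcr2, Timd4, Timd2 and Havcr1, did not pass the filter and were at 1.44 or less in every library; they were named after their values were seen.

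Signals that hold phagocytes back and the machinery of engulfment varied by gene. Sirpa, the receptor for CD47, was at 60.4 and 640.2 in the on-DMBA pair, then 687 and 787 in the 1-week pair. Pecam1 was at 2.61 and 47.2 in the on-DMBA pair, then 209 and 402 in the 1-week pair and is an endothelial marker too. Without on-DMBA replicate 1 its log2 difference was 2.61. The endothelial marker sum, which includes Pecam1 itself, was 206 in the remaining on-DMBA library against 722 and 1628 at 1 week. The part of endothelial cells in the values of Pecam1 was not tested. Cd274 was at 3.80 and 16.7 in the on-DMBA pair, then 25.2 and 34.2 in the 1-week pair, and B2m at 443 and 627 in the on-DMBA pair, then 444 and 501 in the 1-week pair. In the engulfment machinery, Elmo1 was at 1.54 and 33.6 in the on-DMBA pair, then 35.5 and 51.6 in the 1-week pair, Mylk at 1.66 and 32.7 in the on-DMBA pair, then 77.5 and 144 in the 1-week pair, and Rhog at 11.5 and 11.3 in the on-DMBA pair, then 16.4 and 12.4 in the 1-week pair. The leukocyte exchange factor Vav1 was at 0.119 and 230.3 in the on-DMBA pair, then 141 and 210.2 in the 1-week pair, while the adaptor Crk, found in most cells, was at 244 and 177 in the on-DMBA pair, then 148 and 218 in the 1-week pair.

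In the digestion and lipid efflux group, Nr1h3, the oxysterol receptor LXR alpha that is known to induce Mertk in macrophages, was at 1.66 and 9.87 in the on-DMBA pair, then 45.6 and 59.8 in the 1-week pair. Its log2 difference was 3.48 (SE 0.90, limma adjusted p = 1.000) with all libraries. When on-DMBA replicate 1 was left out it was 2.35, and when replicate 2 was left out 4.61. Its target genes Abcg1 and Abca1, which export cholesterol, were at 2.97 and 95.3 in the on-DMBA pair, then 185 and 178 in the 1-week pair, and at 117 and 1657 in the on-DMBA pair, then 859 and 1144 in the 1-week pair. Tgfb1 was at 22.2 and 31.9 in the on-DMBA pair, then 43.6 and 41.5 in the 1-week pair, and the lysosomal gene Lamp1 at 574 and 1353 in the on-DMBA pair, then 695 and 922 in the 1-week pair. Vitamin K dependent carboxylation, which Gas6 and Pros1 need for binding phosphatidylserine, was covered by 4 genes with a median log2 difference of -0.20. Its carboxylase Ggcx was at 28.5 and 46.1 in the on-DMBA pair, then 41.4 and 45.9 in the 1-week pair, and the quinone reductase Nqo1 at 98.9 and 1.44 in the on-DMBA pair, then 5.31 and 10.7 in the 1-week pair.

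In the group of receptor shedding and feedback, Adam17, a protease that cleaves Mertk from the surface, was at 151 and 248 in the on-DMBA pair, then 184 and 326 in the 1-week pair. The cytokine signalling inhibitors Socs3 and Socs1, which TAM receptors are known to induce, were at 49.5 and 529 in the on-DMBA pair, then 395 and 371 in the 1-week pair, and at 5.11 and 5.74 in the on-DMBA pair, then 14.2 and 6.42 in the 1-week pair. Twist2, a transcription factor gene that mesenchymal cells express, was at 0.831 and 4.31 in the on-DMBA pair, then 58.9 and 28.5 in the 1-week pair. Its log2 difference was 4.04 (SE 0.89, limma adjusted p = 1.000) with all libraries and 3.11 without on-DMBA replicate 1. Twist1 was at 1.66 and 15.6 in the on-DMBA pair, then 60.5 and 36.5 in the 1-week pair.

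**Figure D5:**
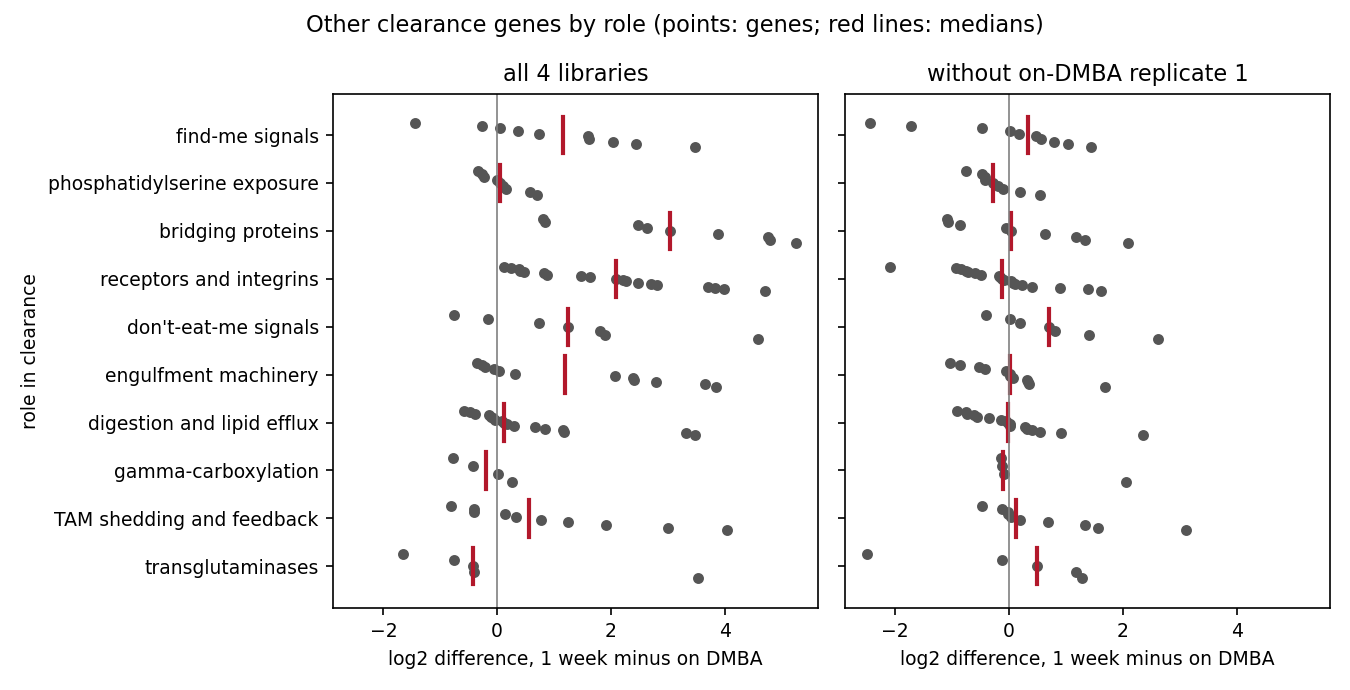
Log2 difference between 1 week and on DMBA (x axes) of the other clearance genes by role (rows), with 1 point per gene and a red line at the median, with all 4 libraries (left) and without on-DMBA replicate 1 (right). The median of the bridging proteins is 3.04 on the left and 0.04 on the right, and that of the receptors and integrins 2.09 and -0.13.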

How the data were processed

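The authors deposited 1 table of normalised expression signal for 22222 gene symbols in 4 libraries. Tools listed in the submitters' processing notes, without a role, are edgeR 3.2.3, HTSeq, TopHat2 2.1 and CASAVA 1.8.2, with mm9 as the build. No source used here gives the annotation or strand setting of the counting. Library preparation removed ribosomal RNA and kept strand, per the labels' protocols. The deposited signal is called CPM, but the columns sum to 867697 to 1149287, so it is CPM against a scaled library size. Every value was a whole multiple of 1 step per library (100.0% within 0.01 reads), which gave 9678682 and 5635945 reads on DMBA and 5551937 and 7662159 at 1 week. A floor of 3 reads is 0.356 to 0.538 scaled CPM and covers counting error only, as do the intervals.

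The 15419 genes that reached 1 scaled CPM in 2 or more libraries were tested with limma 3.58.1 in R 4.3.3 on log2(scaled CPM + 0.5), with a variance trend, two-sided, adjusted by Benjamini-Hochberg over all of them at 0.05. Fold changes on this scale understate low genes. Replicate numbers mark different mice. Levels per kilobase used the union of exons in GENCODE M21. The tests were checked on simulated data with known changes. All simulated libraries had a common spread, so the check does not cover a library that stands apart, as on-DMBA replicate 1 does. Alternatives covered the pseudocount (0.1, 1), the filter (5, or no filter), the scaling (median ratio, or quantile), the eBayes step (robust, or with no trend), the design (a replicate block, or each library left out) and the tool (edgeR 4.0.16 or DESeq2 1.42.0 on recovered reads). The 9 genes and the gene lists were chosen with earlier results of these data known. Named were the 9 genes, the 2 most abundant genes of each role, up to 3 per role with the smallest p among those whose groups did not overlap and whose higher group averaged at least 5 scaled CPM, and the 2 nearest genes in pattern. Itgav, Timd4, Timd2, Havcr1, Cx3cr1, Megf10, Clec10a and Zbtb46 were added outside this rule after their values were seen.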

Additional observations from a re-analysis of the deposited data

How the results depend on the processing

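Of the 9 log2 differences, none passed with all 4 libraries, and each kept its sign and stayed short of the threshold with both other pseudocounts, both other filters, median ratio scaling and both other eBayes settings. Stab1 turned to 0.03 under quantile normalization, and Gas6 to -0.35 in edgeR and -0.40 in DESeq2. Over the 4 fits that left out 1 library, the differences ran from -0.28 to 2.20 for Axl, -0.20 to 3.24 for Mertk, -1.21 to 1.88 for Gas6, -0.56 to 2.33 for Pros1, -1.47 to 1.08 for Stab1, 1.30 to 1.65 for Mfge8, 1.12 to 6.51 for Havcr2, 0.64 to 5.69 for Tgm2 and -2.60 to -0.55 for Tyro3. Their median ran from -0.28 to 2.20. The clearance genes called ran from 0 to 7 higher and 0 to 1 lower, those of the pathway list from 0 to 47 higher and 0 to 6 lower, and all genes from 0 to 2212 higher and 0 to 1549 lower. On recovered reads DESeq2 called 16 genes higher and 3 lower, with 0 clearance genes among them. With the replicate number as a block, 285 genes were called higher and 3 lower, 2 clearance genes were called higher (Havcr2 and Tgm2, adjusted p = 0.00517 and 0.0316), and 16 pathway genes were called higher, F13a1 among them (adjusted p = 0.0131). Same-numbered libraries are from different mice, and their deviations correlated at 0.0151 across genes, so the numbers pair nothing. Depth bears on Havcr2 and Tgm2 in on-DMBA replicate 1, which rest on 4 and 49 reads.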
